A study of Homo sapiens with 12 samples.

Results

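The genes described here are 10 genes of the NF-κB pathway, the 5 transcription factor subunits NFKB1, NFKB2, RELA, RELB and REL, the inhibitors NFKBIA and NFKBIE, the feedback genes TNFAIP3 and BIRC3, and the kinase subunit gene IKBKB. They are 10 of the 20007 protein-coding genes of GENCODE release 44. Each gene was given a window of its gene body with 20 kb on each side, and every accessible region that overlapped the window was kept, with no use of its measured value. An accessible region is a run of contiguous 100-bp bins of the deposited tables, which hold the regions called open. The windows held 57 of 79177 regions in DU-145, 34 of 46298 in BT-549 and 32 of the 32671 regions made of bins present in both tables. All 10 genes had a region at the start of their Ensembl canonical transcript in both lines, and all 57, 34 and 32 regions passed the filter on low values.

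Accessibility was measured by ATAC-seq, in which a transposase cuts open chromatin, in the human castration-resistant prostate cancer (CRPC) line DU-145 and the human triple-negative breast cancer (TNBC) line BT-549. Both lines carried an inducible short hairpin RNA against MUC1 (tet-MUC1shRNA). In each line, 3 libraries came from cells given DMSO as vehicle (DOX-), which 1 label field calls untreated, and 3 came from cells given doxycycline (DOX+), for 12 libraries in 4 groups. All 12 libraries carry the hairpin, no DOX-treated cells without it were analysed here, so a response to the loss of MUC1 and a response to the drug cannot be told apart. BT-549 cells were grown with added insulin and DU-145 cells were not, so a difference between the lines includes that of the medium. The study's methods call the replicates of a group biologically independent, and the labels do not say what separated them.

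NF-κB is a family of dimeric transcription factors that is held in the cytoplasm by IκB proteins until a signal arrives. In the canonical arm, the IKK complex marks IκBα for destruction, and dimers of RELA or REL with the NFKB1 product p50 enter the nucleus. In the noncanonical arm, the NFKB2 product p100 is processed to p52, which pairs with RELB. The pathway ends its own signal through its targets, since NF-κB induces the genes of IκBα (NFKBIA), IκBε (NFKBIE), the ubiquitin-editing enzyme A20 (TNFAIP3) and the ubiquitin ligase cIAP2 (BIRC3). It is widely active in inflammation and in many carcinomas.

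The sequences below are shown because the named genes are known NF-κB targets or subunits. They are stretches of their open start regions, and all but that of RELB match the consensus of the pathway's own factors. A 300-base window centered on the highest bin of each start region was searched on both strands for the NF-κB consensus and for the AP-1 heptamer TGANTCA. In the bins shared by the lines, 7 of the 10 start windows held a match to the NF-κB consensus, against 14.3% of all 11192 start regions. These were the windows of NFKB1, NFKB2, REL, NFKBIA, NFKBIE, TNFAIP3 and BIRC3. Windows of RELA, RELB and IKBKB held none of these letters. The AP-1 heptamer lay in 1 of the 10 windows, that of RELB, against 3.75% of all start regions. A match describes the letters and is not a site of binding. Some matches overlap, because a nearly palindromic site can match on both strands. The sequences below are from GRCh38, read 5′ to 3′ on the strand given, with the match in capitals.
NFKB1, chr4:102501300-102501329, plus strand, 44 bp upstream of the start, in an exon of ENSG00000260651: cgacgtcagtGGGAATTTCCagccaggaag
NFKB2, chr10:102394461-102394490, plus strand, UTR of an NFKB2 transcript: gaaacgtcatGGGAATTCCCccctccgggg
NFKB2, chr10:102394490-102394519, plus strand, UTR of an NFKB2 transcript: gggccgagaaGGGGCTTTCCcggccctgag
REL, chr2:60881517-60881546, plus strand, UTR: cgtcagccgcGGGAAATTCCcctcccgcca
NFKBIA, chr14:35403953-35403982, plus strand, UTR of an NFKBIA transcript: caggcgcccaGGGACTTTCCgcccccctcc
TNFAIP3, chr6:137867182-137867211, minus strand, in a WAKMAR2 intron: ggatttccacGGGACTTTCCaaagtcacgt
TNFAIP3, chr6:137867194-137867223, minus strand, in a WAKMAR2 intron: ttgtaggcccGGGGATTTCCacgggacttt
BIRC3, chr11:102317339-102317368, minus strand, in an ENSG00000288528 intron: ttaggacttaGGGGAACTCCagcggtaata
RELB, chr19:45001940-45001966, plus strand, AP-1 heptamer in a RELB intron: gggcgtggccTGACTCAgagaaggcgg

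The TNFAIP3 pair lies 62 and 50 bp upstream of its start, so the 2 matches are neighbors. Of the 30 member regions in DU-145 that lay over 1 kb from every annotated start, 10 held the AP-1 heptamer, against 45.1% of all 57479 such regions, and 2 held the NF-κB consensus, against 6.79%.

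The members' windows are named by distance from the canonical start in the direction of transcription, so that TNFAIP3 -15.2 kb is a region centered 15.2 kb upstream. The windows were chr4:102481330-102637302 for NFKB1, chr10:102374110-102422524 for NFKB2, chr11:65633599-65683090 for RELA, chr19:44981461-45058192 for RELB, chr2:60861491-60951612 for REL, chr14:35381079-35424749 for NFKBIA, chr6:44238166-44285788 for NFKBIE, chr6:137847214-137903314 for TNFAIP3, chr11:102297484-102359403 for BIRC3 and chr8:42251302-42352460 for IKBKB. Of the 57 regions in DU-145, 10 were the start regions, 3 lay at another start of the member, 14 lay at the start of another gene, 14 and 10 lay in the upstream and downstream flanks and 6 in the gene body. The windows of NFKB2, RELA, NFKBIE and IKBKB reached the starts of PSD, SIPA1, HSP90AB1 and POLB among others.

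The depth differed between the groups. A library's bin values summed to between 12370094 and 24001285 in DU-145 vehicle, 16337380 and 25232000 in DU-145 DOX, 9142900 and 13606129 in BT-549 vehicle but only 2502510 and 3267024 in BT-549 DOX cells. Every DOX effect in BT-549 therefore compares deep with shallow libraries, and the part of depth in those effects was not tested. All 5 epithelial markers (CDH1, EPCAM, KRT8, KRT18 and KRT19) had a start region in DU-145 and 0 of 5 had one in BT-549, 3 of 4 and 4 of 4 mesenchymal markers had one, and of 4 blood markers (PTPRC, CD3E, CD79A and SPI1) CD79A had one, in DU-145. CD79A held 7.21, 6.12 and 4.87 in vehicle and 13.6, 13.3 and 10.7 in DOX libraries there, and the part of other cells in the results was not tested. The start region of MUC1 itself held 89.0, 96.9 and 87.3 in DU-145 vehicle and 76.9, 84.3 and 81.5 in DU-145 DOX libraries (scaled coverage, the sum of a region's bins per 1000000 of the library sum), and 149, 173 and 146 against 161, 172 and 141 in BT-549. Neither change passed the test (adjusted p = 0.0534 and 0.907 by edgeR's quasi-likelihood test), and accessibility does not show whether the hairpin lowered the RNA. The paper describes MUC1-C as silenced in both lines and refers to immunoblots of vehicle and DOX cells, which were not examined here.

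To set genes side by side, the scaled coverage was divided by the number of bins. On this scale NFKBIA was the most open of the 10 starts in DU-145 vehicle cells, with 5.74 ± 0.361 (SD, n = 3) per bin, at percentile 96.0 of 12367 start regions. NFKB2 followed with 3.56 ± 0.157 and REL with 3.08 ± 0.0219, and no library of these 3 genes overlapped with those of the next. NFKB1 had 2.40 ± 0.0902, IKBKB 2.26 ± 0.103, RELA 2.25 ± 0.273, TNFAIP3 2.03 ± 0.0919 and BIRC3 1.91 ± 0.0739 per bin. Among these, RELA overlapped with NFKB1, IKBKB and TNFAIP3, and TNFAIP3 with BIRC3. NFKBIE with 1.66 ± 0.0564 and RELB with 1.51 ± 0.184 were lowest and overlapped with each other. The place of NFKBIE went with the length of its region (3400 bp), since in the highest bin alone it had 8.42 ± 0.445, the fifth of the 10, where NFKBIA was again highest with 20.6 ± 0.531 and RELB lowest with 2.79 ± 0.182.

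The order was another one in BT-549 vehicle cells. NFKBIE with 4.49 ± 0.469 and NFKB2 with 4.36 ± 0.234 per bin were highest, at percentiles 90.4 and 89.3 of 11838 start regions, and overlapped. IKBKB (3.09 ± 0.239), TNFAIP3 (3.03 ± 0.162) and NFKBIA (3.02 ± 0.288) formed an overlapping middle group, as did RELB (2.47 ± 0.26), REL (2.42 ± 0.123), NFKB1 (2.34 ± 0.237) and RELA (2.16 ± 0.145) below it. BIRC3 was lowest with 1.51 ± 0.145 and overlapped with none. The regions have different lengths in the tables of the lines (3700 bp in DU-145 and 2300 bp in BT-549 for NFKBIA, 3400 and 1100 bp for NFKBIE), which the per-bin level includes. Over the bins present in both tables, NFKBIE differed between the lines by 0.05 ± 0.10 on the log2 scale and did not pass the test (adjusted p = 0.659).

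The first comparison asked how DOX changed these loci in DU-145. At the starts, coverage fell at 7 of the 10 genes and rose at 0 by edgeR, with 0 higher at an unadjusted p under 0.05 and 0 by DESeq2. The falls were small, between 0.21 and 0.36 on the log2 scale, and took in both inhibitors (NFKBIA, NFKBIE), the subunits NFKB1, NFKB2 and REL, the feedback gene BIRC3 and the kinase gene IKBKB. Among all 12367 start regions, 39.8% were called lower and 8.18% higher at an adjusted p of 0.05, and the median change was -0.18, against a median of -0.24 for the 10 genes. The count is given beside that background, in which lower calls at starts were common.

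REL, the subunit c-Rel, held 80.5, 79.4 and 80.1 in vehicle and 64.9, 63.8 and 58.1 in DOX libraries. The groups were far apart for the spread within them, and the change was -0.36 ± 0.08 (log2 fold change ± SE, adjusted p = 0.000188). BIRC3 held 49.4, 53.1 and 52.4 against 38.4, 41.8 and 40.6, a change of -0.36 ± 0.09 (adjusted p = 0.000717). NFKB1 held 54.1, 57.7 and 54.1 against 43.1, 44.7 and 45.4, a change of -0.32 ± 0.09 (adjusted p = 0.00188). In all 3 genes every DOX library lay below every vehicle library. NFKBIA, whose product IκBα binds and retains NF-κB, held 197, 222 and 218 against 158, 193 and 182, with -0.26 ± 0.07 (adjusted p = 0.00252). IKBKB, which encodes the kinase IKKβ, held 36.4, 39.7 and 39.0 against 28.4, 33.3 and 32.5, with -0.29 ± 0.10 (adjusted p = 0.0124). NFKB2 held 105, 96.7 and 97.4 against 83.7, 90.4 and 82.4, with -0.22 ± 0.07 (adjusted p = 0.0125), and NFKBIE had the smallest called change, -0.21 ± 0.09 (adjusted p = 0.0356). These groups did not overlap either.

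RELA, RELB and TNFAIP3 were the starts that did not pass the test in DU-145. RELA held 35.4, 40.8 and 45.2 in vehicle and 37.8, 48.7 and 41.4 in DOX libraries (0.08 ± 0.10, adjusted p = 0.532). RELB held 19.7, 23.3 and 25.1 against 18.4, 24.2 and 21.4 (-0.08 ± 0.12, adjusted p = 0.593). TNFAIP3 held 40.5, 38.5 and 37.0 against 34.9, 37.5 and 32.9 (-0.14 ± 0.09, adjusted p = 0.224). In each the groups overlapped.

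The calls at DU-145 starts depended on how they were made. With loess offsets, 1 of the 10 starts was called lower (BIRC3), and the values of NFKB2 and NFKBIA turned to 0.05 and 0.15. A fragment counts in every bin it covers, so that a sum over bins counts it more than once. With the mean coverage per bin in place of the sum none of these members was called, with nearly the same fold changes (-0.36 for REL, adjusted p = 0.0792). The mean divides by all bins of a region and was rounded, which leaves small counts that lower the power of the test. Calls lost with the mean, here and below, therefore cannot show how much the repeated counting added.

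**Figure D1:**
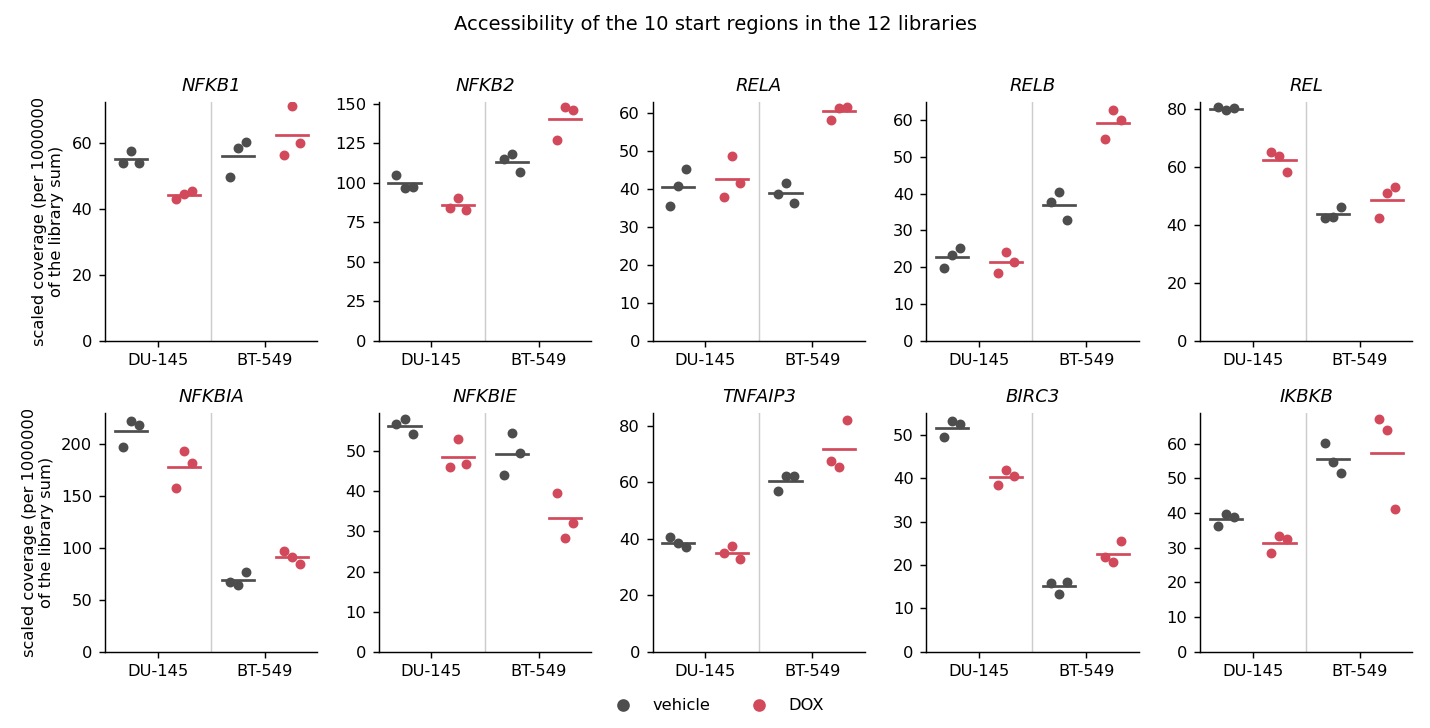
Scaled coverage of the 10 start regions (y axis, per 1000000 of the library sum, linear from 0) in each line, where a point is 1 of 3 vehicle or 3 DOX libraries and a line is a group mean. In DU-145 the DOX points of REL, BIRC3 and NFKB1 lie below all vehicle points and in BT-549 those of RELA and RELB lie above them, while with loess offsets the DU-145 changes of NFKB2 and NFKBIA turn to 0.05 and 0.15 (log2).

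Away from the starts, the DU-145 loci gained more than they lost. Of the 30 regions over 1 kb from every annotated start, 11 were called higher and 4 lower, with a median of 0.24, whereas 44.4% of all 57479 such regions were called higher and 12.9% lower, with a median of 0.44. The members' share of gains was thus no larger than in the genome as a whole. The largest gain of the 57 regions lay upstream of TNFAIP3, which encodes A20, a brake on the pathway.

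TNFAIP3 -15.2 kb, an intronic region of the noncoding gene WAKMAR2 at chr6:137851401-137852700, held 1.12, 1.58 and 2.39 in vehicle and 13.5, 16.3 and 13.5 in DOX libraries. Every DOX library lay far above the highest vehicle library. The region rose by 3.10 ± 0.21 on the log2 scale, or 8.55-fold (adjusted p = 2.1e-14). A peak had been called there in 1 of 3 vehicle libraries, with a fold enrichment of 6.27, and in 3 of 3 DOX libraries, with 21.0, 21.6 and 18.4. Its 300-base window held neither the NF-κB consensus nor the AP-1 heptamer. The highest bin of the region is shown in lower case throughout for that reason.
TNFAIP3 -15.2 kb, chr6:137851801-137851900, plus strand, GRCh38: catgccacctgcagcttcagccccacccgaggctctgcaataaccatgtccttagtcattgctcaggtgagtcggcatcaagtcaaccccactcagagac

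A further pair of regions gained accessibility at the TNFAIP3 locus. TNFAIP3 -13.5 kb held 2.17, 1.63 and 1.5 in vehicle and 5.22, 4.27 and 4.08 in DOX libraries, and rose by 1.35 ± 0.25 (adjusted p = 1.95e-05). Its window holds the AP-1 heptamer in the same WAKMAR2 intron, shown here with the heptamer in capitals because it is the match in a region that gained.
TNFAIP3 -13.5 kb, chr6:137853725-137853751, plus strand, GRCh38: gagccaagtgTGAGTCAcaaccatgga
TNFAIP3 +27.8 kb, past the end of the gene, held 0.861, 0.517 and 0.224 against 3.52, 3.20 and 3.59, and rose by 2.66 ± 0.34 (adjusted p = 3.27e-08), with a peak in 0 of 3 vehicle and 3 of 3 DOX libraries. The intronic region TNFAIP3 +6.2 kb, with an NF-κB match, held 2.74, 1.92 and 2.73 against 1.78, 1.32 and 2.35 and did not pass the test (-0.42 ± 0.29, adjusted p = 0.226), though it was called lower with the GC trend removed (-1.04, adjusted p = 0.00235). The start and the intron of TNFAIP3 did not pass the test where 3 flanking regions rose. The start did pass with TMM factors (-0.33, adjusted p = 0.00444).

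**Figure D2:**
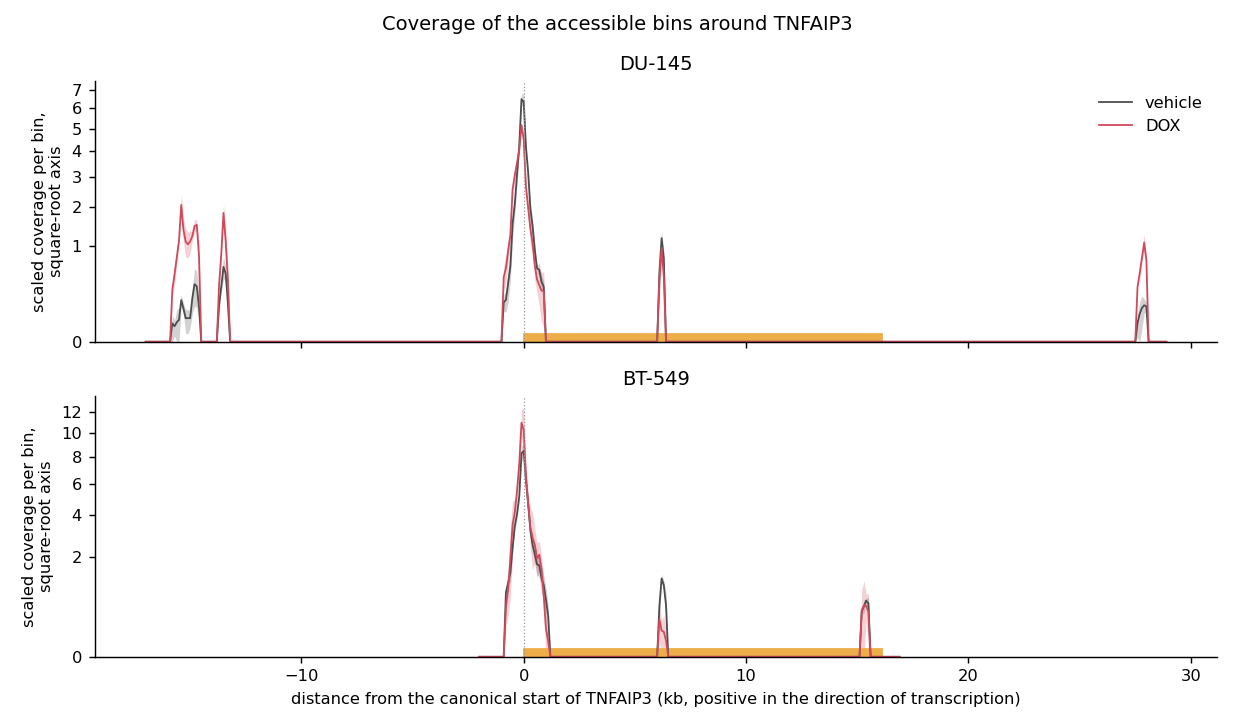
Scaled coverage per bin (y axis, per 1000000 of the library sum, square-root scale) against the distance from the TNFAIP3 canonical start in kb, with the gene body as an orange bar, lines as means of 3 libraries, shading as the mean ± SD, and bins outside the accessible regions drawn at 0. In DU-145 (top) the DOX line stands above vehicle at -15.2, -13.5 and +27.8 kb, and in BT-549 (bottom) it lies below vehicle at +6.2 kb.

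NFKB1, the gene of p105 and p50, gained past its 3′ end. NFKB1 +126.8 kb, an intergenic region, held 3.77, 2.76 and 2.30 in vehicle and 17.7, 16.9 and 17.0 in DOX libraries, and rose by 2.56 ± 0.18, or 5.88-fold (adjusted p = 3.68e-14). Peaks stood in 3 of 3 libraries of both groups, and their fold enrichments were 10.5, 12.2 and 6.84 without DOX and 38.9, 41.0 and 38.4 with it. Its window holds 2 AP-1 heptamers, shown as above.
NFKB1 +126.8 kb, chr4:102627942-102627968, plus strand, GRCh38: catcaacttaTGATTCAttcttgaaat
NFKB1 +126.8 kb, chr4:102628023-102628049, plus strand, GRCh38: taacaaattaTGATTCAgtctctgagg
NFKB1 +119.1 kb held 13.1, 13.4 and 13.1 against 23.2, 23.5 and 19.8, and rose by 0.75 ± 0.13 (adjusted p = 4.95e-06), but lost its call with the trend on GC content removed (0.25, adjusted p = 0.0924). The start of NFKB1 fell while both downstream regions rose.

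NFKBIA gained in several regions around a start that fell. NFKBIA -15.4 kb held 0.622, 1.09 and 1.01 in vehicle and 2.90, 3.20 and 4.33 in DOX libraries, and rose by 1.91 ± 0.30 (adjusted p = 1.65e-06), with a peak in 0 of 3 and 3 of 3 libraries. NFKBIA -10.0 kb held 1.81, 0.901 and 1.75 against 5.57, 4.89 and 5.35, and rose by 1.88 ± 0.26 (adjusted p = 1.81e-07). In both, every DOX library exceeded every vehicle library. The broad region NFKBIA +5.5 kb at the 3′ end of the gene held 27.0, 33.1 and 27.5 against 44.7, 49.9 and 51.7, and rose by 0.73 ± 0.10 (adjusted p = 1.03e-07), yet with the trend on GC content removed its change was 0.21 (adjusted p = 0.0795). NFKBIA -2.4 kb rose by 0.73 ± 0.20 but was not called with the GC trend removed (0.09, adjusted p = 0.734) or with loess offsets (0.37, adjusted p = 0.115). NFKBIA +13.6 kb rose by 0.46 ± 0.12 but was not called with TMM factors (0.26, adjusted p = 0.0577), and NFKBIA +19.6 kb fell by 0.41 on the log2 scale.

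The other loci had called regions in both directions. NFKB2 -7.3 kb, intergenic, held 2.81, 2.24 and 2.49 in vehicle and 0.601, 0.873 and 0.85 in DOX libraries. It fell by 1.65 on the log2 scale (SE 0.32, adjusted p = 3.81e-05), the largest fall among the 57 regions, and its peak was called in 3 of 3 vehicle and 0 of 3 DOX libraries. In the NFKB2 window the GBF1 transcript start at -16.6 kb rose by 1.88 ± 0.36, the PSD start at +9.9 kb by 0.92 ± 0.32 and the inner NFKB2 start at +6.3 kb by 0.80 ± 0.16, while the PSD start at +13.4 kb fell by 0.88. Around BIRC3, the region at +6.6 kb rose by 1.62 ± 0.39 and that at -4.3 kb by 1.25 ± 0.24, and that at -11.1 kb, with an AP-1 heptamer, fell by 0.45. BIRC3 +6.6 kb had 0.89 with the GC trend removed (adjusted p = 0.059) and 0.60 with loess offsets (adjusted p = 0.214), and with the GC trend removed BIRC3 -4.3 kb had 0.58 and BIRC3 -11.1 kb -1.05. The PSD start at NFKB2 +9.9 kb was not called by DESeq2 (0.68, adjusted p = 0.148), with loess offsets (0.26, adjusted p = 0.504), with the mean coverage per bin (adjusted p = 0.206) or without the third DOX library (0.71, adjusted p = 0.123). With loess offsets the GBF1 start had 1.14 (adjusted p = 0.0102).

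In the NFKBIE window, the regions with the largest changes lay at the starts of neighboring genes. NFKBIE -3.9 kb, a TMEM151B start, rose by 2.18 ± 0.25 (adjusted p = 4.75e-09), from 0.889, 1.51 and 1.39 to 6.02, 6.12 and 5.25. The start of HSP90AB1, the gene of the chaperone HSP90β, held 154, 162 and 155 in vehicle and 105, 121 and 113 in DOX libraries, and fell by 0.47 (SE 0.07, adjusted p = 5.9e-07), but with loess offsets its change was -0.13 (adjusted p = 0.106). At RELB, a CLASRP start at +50.2 kb rose by 1.14 ± 0.34 and lost its call by DESeq2 (0.89, adjusted p = 0.0662) and with loess offsets (0.37, adjusted p = 0.371). At IKBKB, the intronic region at +6.1 kb fell by 0.61 (SE 0.25, adjusted p = 0.0391). None of the 5 regions in the RELA window passed the test, with changes from -0.04 to 0.12, and neither did the 2 REL regions beside its start, of which the intronic REL +4.2 kb held -0.60 ± 0.31 and was called lower with the GC trend removed (-1.34, adjusted p = 0.00053).

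**Figure D3:**
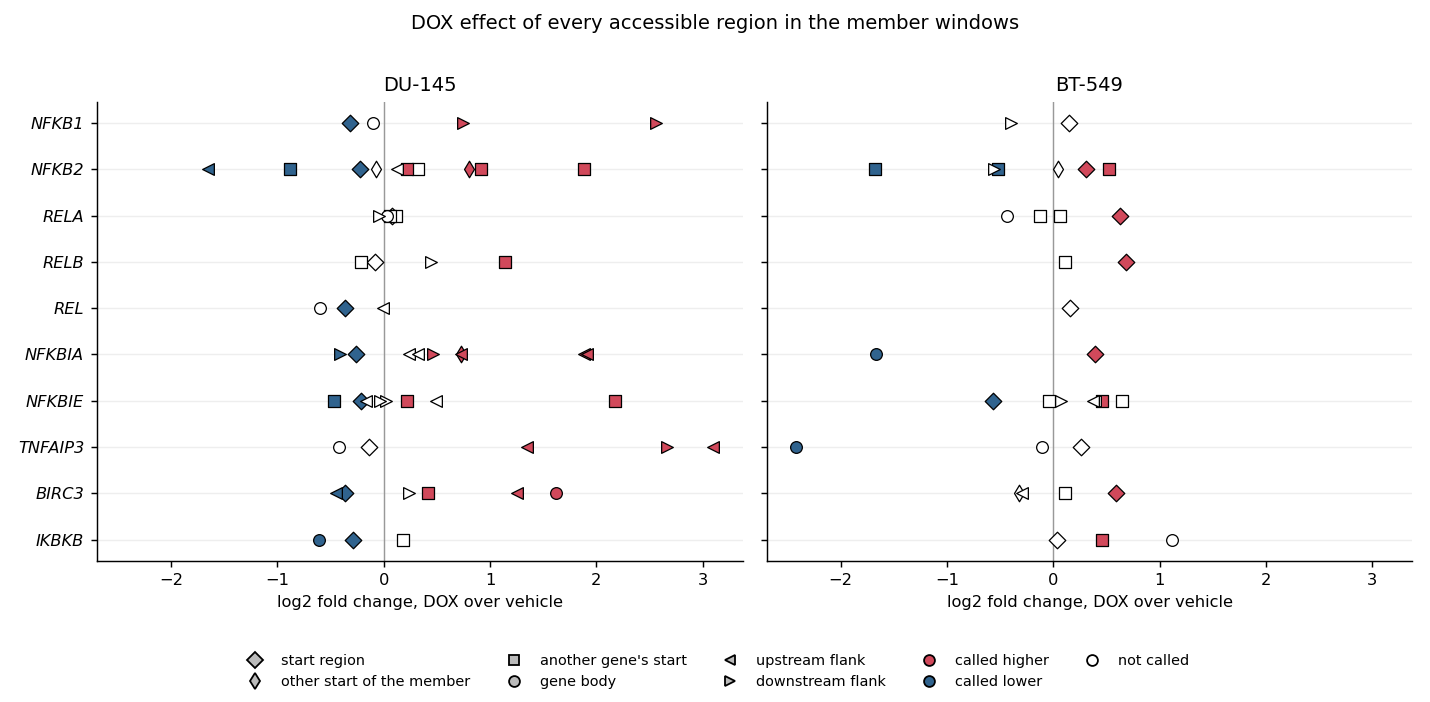
Log2 fold change of DOX over vehicle (x axis) for each accessible region in the 10 windows (rows), 57 in DU-145 (left) and 34 in BT-549 (right), where the shape gives the place and red, blue and white fill mean called higher, called lower and not called at an adjusted p of 0.05. In DU-145 the start regions (wide diamonds) lie at or below 0.08, with NFKB2 and NFKBIA at 0.05 and 0.15 under loess offsets, and the regions past 2 belong to TNFAIP3, NFKB1 and NFKBIE, while in BT-549 starts lie between -0.57 and 0.68.

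The second comparison made the same contrast in BT-549. There 5 of the 10 starts were called higher and 1 lower, against 18.2% and 6.88% of all 11838 start regions, and the median was 0.29 beside 0.09 for all starts. The starts that rose were those of RELA, RELB, NFKB2, NFKBIA and BIRC3, so that both arms of the pathway were represented, and NFKBIE fell. The BT-549 DOX libraries were the shallow ones throughout.

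RELB, the partner of p52, held 37.6, 40.5 and 32.8 in vehicle and 54.9, 62.8 and 59.9 in DOX libraries, and rose by 0.68 ± 0.14 (adjusted p = 0.000411). RELA, the subunit p65, held 38.7, 41.5 and 36.3 against 58.0, 61.3 and 61.6, and rose by 0.63 ± 0.13 (adjusted p = 0.000537). The groups of both genes were well apart. BIRC3 held 15.8, 13.4 and 16.1 against 21.8, 20.6 and 25.5 (0.59 ± 0.20, adjusted p = 0.0279). NFKBIA held 67.6, 63.8 and 76.7 against 96.7, 91.3 and 84.9 (0.39 ± 0.11, adjusted p = 0.0101). NFKB2 held 115, 118 and 107 against 127, 148 and 146 (0.31 ± 0.10, adjusted p = 0.0182). NFKBIE, the gene of IκBε, went the other way with 44.2, 54.5 and 49.5 against 39.7, 28.3 and 32.2, and fell by 0.57 (SE 0.15, adjusted p = 0.00593). No groups overlapped in these 6 genes.

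TNFAIP3 held 56.8, 62.4 and 62.4 in vehicle and 67.7, 65.5 and 82.2 in DOX libraries of BT-549, without overlap, and did not pass the test (0.26 ± 0.12, adjusted p = 0.113). NFKB1 with 0.15 ± 0.13, REL with 0.16 ± 0.14 and IKBKB with 0.03 ± 0.15 had overlapping groups. The count of higher starts among these members rested on single libraries: it was 2 without the first vehicle library (RELA and RELB), 3 without the second or the third vehicle or the third DOX library, and 4 without the second DOX library. It was also 3 with the GC trend removed, where NFKBIA had 0.29 (adjusted p = 0.0872) and NFKB2 0.22 (adjusted p = 0.124). With the mean coverage per bin it was 0, with similar fold changes (0.61 for RELB, adjusted p = 0.285).

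Of the 11 BT-549 regions away from starts, 0 were called higher and 2 lower by edgeR, against 9.61% and 23.3% of all 28063, and both medians were -0.29. At an unadjusted p under 0.05, 1 region was higher, and by DESeq2 0 were. The largest positive change, that of the intronic IKBKB +21.8 kb, was 1.12 ± 0.50 (adjusted p = 0.0924). The 2 that fell lay at NFKBIA and TNFAIP3.

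NFKBIA +4.4 kb spans the 3′ end of the gene at chr14:35399201-35401500, with an annotated start of another NFKBIA transcript 1003 bp away. It held 34.0, 35.9 and 40.4 in vehicle and 11.9, 16.4 and 6.90 in DOX libraries. Every DOX library lay far below the lowest vehicle library. The region fell by 1.67 on the log2 scale (SE 0.22, 3.19-fold lower, adjusted p = 1.6e-06), and by 1.42 with the GC trend removed. Peaks stood in 3 of 3 vehicle libraries, with fold enrichments of 16.3, 14.7 and 15.4, and in 1 of 3 DOX libraries, with 5.28. With the mean coverage per bin the change was -1.68 (adjusted p = 0.0934). Much of the highest bin of the region is not unique on its chromosome. Its 77 pieces of 24 bases occur between 1 and 46 times each on their chromosome, with a median of 3, against 1 for each piece of the TNFAIP3 -15.2 kb bin shown above. Fragments there may be shared with other copies of this sequence, and the value of this region is uncertain to that extent.

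TNFAIP3 +6.2 kb, the intronic region with an NF-κB match, held 3.27, 3.22 and 3.39 in vehicle and 1.08, 0.0 and 0.716 in DOX libraries of BT-549. It fell by 2.42 on the log2 scale (SE 0.62, adjusted p = 0.00375), with a peak in 3 of 3 vehicle and 0 of 3 DOX libraries, and the shallow DOX libraries make this a value of few fragments. Its match is shown because the same site lay in a region that did not pass the test in DU-145.
TNFAIP3 +6.2 kb, chr6:137873549-137873578, plus strand, GRCh38: acttagcactGGGGAATTCCagatgttact
In the neighboring genes, the PSD start at NFKB2 +13.4 kb fell by 1.68 (SE 0.32, adjusted p = 0.000229), that at +8.8 kb by 0.52, and that at +25.6 kb rose by 0.52 ± 0.11. The starts of HSP90AB1 and POLB rose by 0.46 ± 0.14 and 0.46 ± 0.13.

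**Figure D4:**
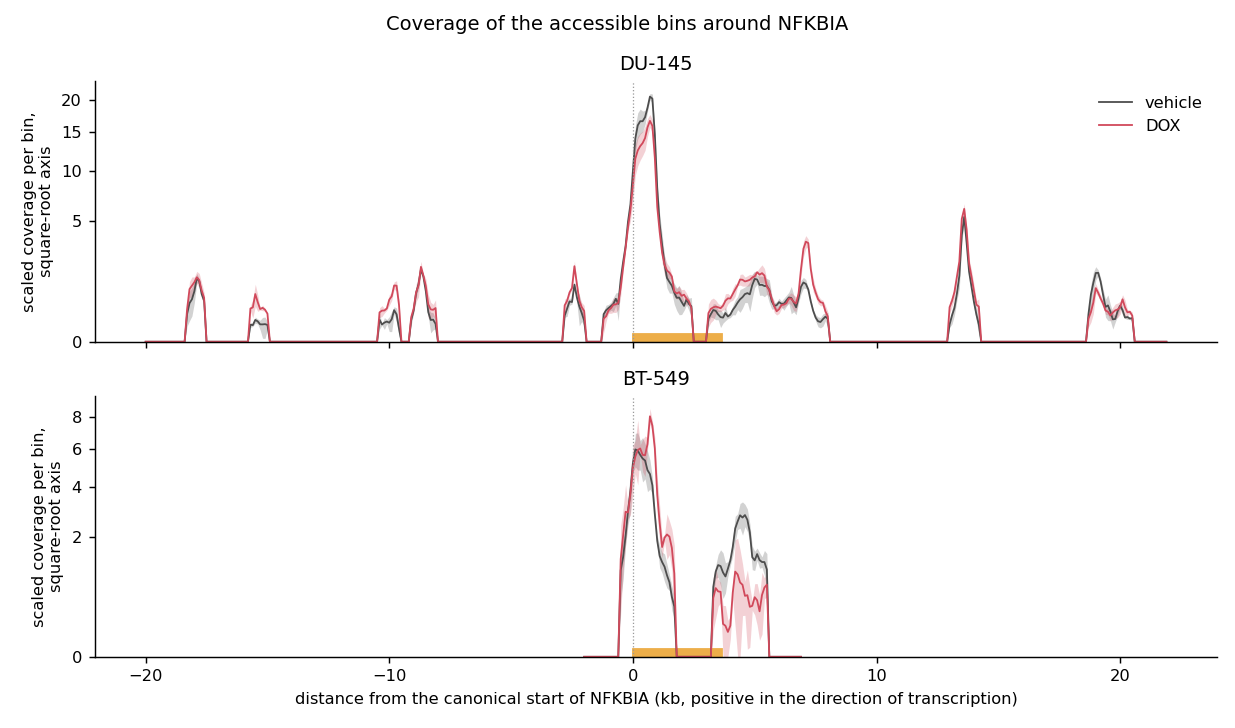
Scaled coverage per bin (y axis, per 1000000 of the library sum, square-root scale) against the distance from the NFKBIA canonical start in kb, with the gene body as an orange bar, lines as means of 3 libraries, shading as the mean ± SD, and bins outside the accessible regions drawn at 0. The 3′ region near 4.4 kb is higher with DOX in DU-145 (top) and lower with DOX in BT-549 (bottom), where vehicle libraries hold 34.0 to 40.4 and DOX libraries 6.90 to 16.4 over the region. With the GC trend removed, the DU-145 region that holds it changed by 0.21 (log2) and was not called.

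The third comparison tested whether the DOX effect differed between the lines, as the interaction of line and DOX in 1 fit over the shared bins of all 12 libraries. That fit scales each library to its shared bins, so its effects need not equal those above. Of the 10 starts, 4 had a more negative effect in DU-145 (NFKB2, RELB, NFKBIA and BIRC3) and 1 a more positive one (NFKBIE), against 22.6% and 8.82% of all 11192 shared start regions. Of 8 shared regions away from starts, 5 had a more positive effect in DU-145 and 0 a more negative one by edgeR (0 also at an unadjusted p under 0.05 and by DESeq2), against 40.5% and 4.51% of all 16812.

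BIRC3 had the largest difference among the starts, with an effect of -0.31 in DU-145 and 0.53 in BT-549, which differed by -0.85 ± 0.20 (adjusted p = 0.000781). For RELB the effects were 0.04 and 0.64, a difference of -0.59 ± 0.19 (adjusted p = 0.0116), and for NFKBIA -0.15 and 0.34, a difference of -0.48 ± 0.13 (adjusted p = 0.00207). BIRC3 and RELB kept their calls with GC or loess offsets, whereas NFKBIA had -0.17 with loess offsets (adjusted p = 0.308). NFKB2 differed by -0.35 ± 0.12, and by -0.29 with the GC trend removed (adjusted p = 0.068). NFKBIE had effects of -0.16 and -0.62 and differed by 0.46 ± 0.17, or by 0.25 with TMM factors (adjusted p = 0.267). RELA (-0.38 ± 0.17, adjusted p = 0.0707) and REL (-0.34 ± 0.15, adjusted p = 0.0638) did not pass. With TMM factors, 8 starts had a more negative effect in DU-145 and 0 a more positive one, and the shares of all start regions under that scaling were not computed.

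The 3′ region of NFKBIA differed most of the 32 regions. In the shared bins it held 15.4, 24.4 and 21.2 in vehicle and 31.8, 36.0 and 35.0 in DOX libraries of DU-145, and 41.6, 43.8 and 49.7 in vehicle and 14.0, 19.2 and 8.17 in DOX libraries of BT-549. The lines went in opposite directions, without overlap in either. The broad DU-145 region that holds this stretch, NFKBIA +5.5 kb, was however not called with the GC trend removed (0.21, adjusted p = 0.0795). Much of the highest bin here is not unique on its chromosome, as given above, so the values are uncertain to that extent. The effects of 0.75 and -1.71 differed by 2.47 ± 0.26 (adjusted p = 6.27e-10), and by 1.63 with the GC trend removed (adjusted p = 6.47e-06). TNFAIP3 +6.2 kb differed by 2.25 ± 0.74 (adjusted p = 0.0136), but by 1.24 with the GC trend removed (adjusted p = 0.228), and by 1.74 without the second BT-549 DOX library (adjusted p = 0.06). NFKB1 +119.3 kb differed by 1.17 ± 0.30 and BIRC3 -4.4 kb by 1.75 ± 0.46, and with the GC trend removed these were 0.37 (adjusted p = 0.367) and 0.53 (adjusted p = 0.393).

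The fourth comparison set the lines against each other in vehicle. DNA copy number was not measured. The median of the shared regions within 1 Mb of each start, without those in the member's own window, is given beside the difference of that start. Of the 10 starts, 3 were higher in DU-145 (NFKBIA, BIRC3 and REL) and 3 lower (RELB, TNFAIP3 and IKBKB), against 39.6% and 34.5% of all 11192 starts. With TMM factors 7 were higher and 2 lower, and by DESeq2 7 were higher and 0 lower. The shares of all start regions under these settings were not computed.

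NFKBIA held 256, 287 and 285 in DU-145 and 82.7, 77.8 and 94.4 in BT-549, a difference of 1.70 ± 0.08 on the log2 scale (adjusted p = 1.69e-19). Its 22 neighboring regions had a median of 1.47, so the start stood 0.23 above its surroundings. BIRC3 held 53.3, 52.7 and 54.7 against 19.3, 16.4 and 19.8, a difference of 1.53 ± 0.12 (adjusted p = 3.03e-13), where the median of 23 neighbors was -0.40. REL held 104, 101 and 103 against 51.5, 51.8 and 56.7, or 0.94 ± 0.09, next to a median of 0.89 for 17 neighbors. The surroundings of NFKBIA and REL thus differed about as much as the genes did. The neighbor median of BIRC3 lay near the median of all shared regions, which was -0.33 with this scaling and -0.06 with TMM factors. Neighbors include starts and regions away from starts, whose medians over all shared regions were 0.05 and -0.71.

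RELB held 26.0, 30.9 and 33.5 in DU-145 and 45.2, 48.9 and 39.4 in BT-549, or -0.57 ± 0.12 (adjusted p = 0.000118), with a neighbor median of -0.13. TNFAIP3 differed by -0.49 ± 0.10 and IKBKB by -0.38 ± 0.10, where the neighbor medians were -1.30 and -0.72, so these starts were less reduced than their surroundings. With RLE size factors the differences of TNFAIP3 and IKBKB were -0.20 (adjusted p = 0.0709) and -0.08 (adjusted p = 0.487). NFKB1 (0.13 ± 0.10), NFKB2 (-0.06 ± 0.08), RELA (0.19 ± 0.11) and NFKBIE (0.05 ± 0.10) did not pass, and NFKB2 turned to 0.21 with TMM factors (adjusted p = 0.0168).

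**Figure D5:**
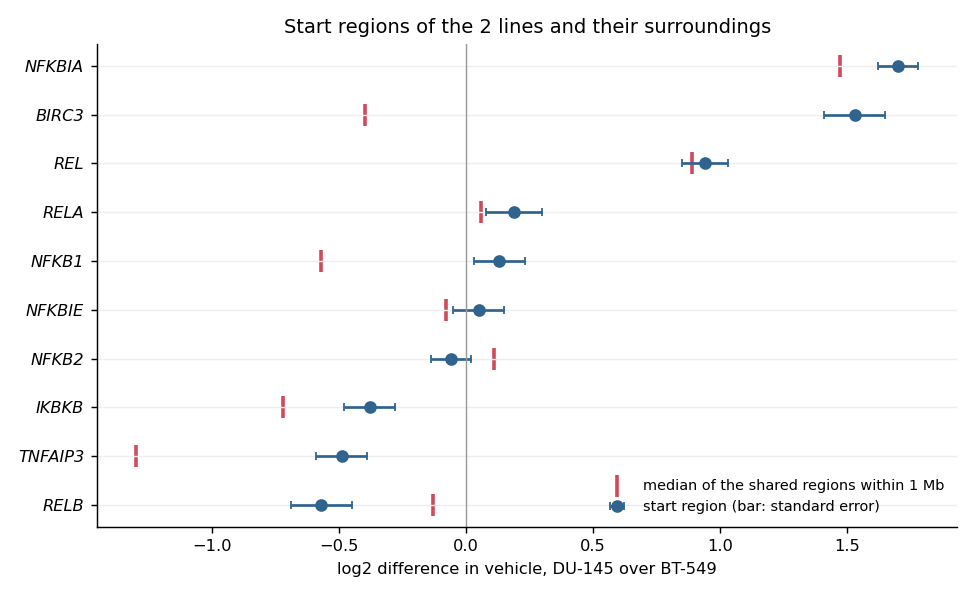
Log2 difference of DU-145 over BT-549 in vehicle cells (x axis) for the 10 start regions (blue points, bars give the standard error, 3 libraries per line), and the median of the shared regions within 1 Mb and outside the member's window (red ticks). NFKBIA, BIRC3 and REL lie to the right of 0, and NFKB2, at -0.06 here, turns to 0.21 with TMM factors. The point of BIRC3 lies at 1.53 and its red tick at -0.40, near the median of -0.33 for all shared regions.

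Of the 8 shared regions away from starts, 2 were higher in DU-145 and 2 lower, against 18.2% and 57.6% of all 16812 such regions. The higher ones were NFKBIE +27.7 kb, which held 131, 115 and 128 in DU-145 against 30.7, 32.9 and 29.2 in BT-549 (2.0 ± 0.10, neighbor median -0.08), and NFKB1 +119.3 kb (0.62 ± 0.17). NFKBIE +27.7 kb lies nearer to another gene, with a start of SLC29A1 5245 bp away. The lower ones were NFKBIA +4.4 kb (-1.13 ± 0.14, neighbor median 1.47), with -0.45 when the GC trend was removed (adjusted p = 0.00414), and BIRC3 -4.4 kb (-1.34 ± 0.28), and the latter had -0.23 with the GC trend removed (adjusted p = 0.465). The 3′ region of NFKBIA differed in the opposite direction from the start of the same gene and from its surroundings. Next to NFKBIE, the start of HSP90AB1 was higher in DU-145 by 1.96 ± 0.08 (adjusted p = 1.31e-20).

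Summed over whole windows, the loci changed less than single regions. In DU-145, TNFAIP3 rose by 0.40 ± 0.08 (adjusted p = 0.000163) and NFKB1 by 0.22 ± 0.07 (adjusted p = 0.0101), and REL fell by 0.33 (SE 0.07, adjusted p = 0.00021), which is 2 higher and 1 lower of 10 loci against 20.6% and 31.3% of 18199. These sums depended on the flanks: over the gene body alone TNFAIP3 fell by 0.55 (adjusted p = 0.0016) and NFKB1 by 0.36 (adjusted p = 0.0024). In BT-549, RELB rose by 0.46 ± 0.12 (adjusted p = 0.00297) as the 1 called locus, with 0 lower by edgeR, at an unadjusted p under 0.05 and by DESeq2, against 18.9% and 13.8% of 16966. Between the lines, NFKBIA (1.19 ± 0.07), REL (0.94 ± 0.09), NFKBIE (0.64 ± 0.06), BIRC3 (0.27 ± 0.08) and NFKB1 (0.21 ± 0.09) were higher in DU-145 and TNFAIP3 (-0.47 ± 0.09), IKBKB (-0.44 ± 0.08) and RELB (-0.37 ± 0.10) lower, 5 and 3 of 10 against 39.8% and 38.1% of 16423. Those of BIRC3 and NFKB1 were 0.13 and 0.07 when scaled to whole-table sums and were then not called. The NFKBIE window, with means of 393 in DU-145 and 252 in BT-549, includes the HSP90AB1 start, with means of 206 and 53.2. The NFKBIE start itself differed by 0.05 ± 0.10 and did not pass the test, so the window sum does not describe that start.

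The other genes of the pathway were read at their starts from fixed lists. Of 27 genes of IKK and receptor signaling, 2 were called higher and 12 lower with DOX in DU-145, and 6 higher and 1 lower in BT-549. The shares of all start regions were 8.18% higher and 39.8% lower in DU-145 and 18.2% and 6.88% in BT-549, and the counts of this list lay near them. TRAF1, a receptor adaptor, rose in DU-145 from 3.85 ± 0.351 to 10.3 ± 0.292 (SD, n = 3; 1.39 ± 0.18) and fell in BT-549 from 32.1 ± 1.45 to 19.0 ± 3.23 (-0.76 ± 0.18), and the effects differed by 2.47 ± 0.27 (adjusted p = 8.02e-10). MAP3K14, which encodes the noncanonical kinase NIK, went the other way, from 101 ± 1.02 to 73.7 ± 7.66 in DU-145 (-0.46 ± 0.08) and from 44.8 ± 1.01 to 72.5 ± 9.44 in BT-549 (0.70 ± 0.13), a difference of -0.98 ± 0.14 (adjusted p = 3.18e-07). XIAP fell by 0.77 and BIRC2, the neighbor of BIRC3 that encodes cIAP1, rose by 0.42 ± 0.08 in DU-145. The BIRC2 start lies in the region named BIRC3 +29.6 kb. Its DU-145 change was -0.01 with the GC trend removed (adjusted p = 0.939), 0.23 with TMM factors and 0.58 with loess offsets. The medians of this list were -0.19 and 0.07, close to those of all starts.

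Of 14 further regulators, not all of them only inhibitors, 13 had a start region. In DU-145, 0 were called higher by edgeR (1 at an unadjusted p under 0.05) and 7 lower, among them TANK (-0.48 ± 0.10), the ligase gene ITCH (-0.57 ± 0.12) and the deubiquitinase gene OTULIN (-0.31 ± 0.07), where 8.18% of all start regions were higher and 39.8% lower. In BT-549, 5 were called higher and 0 lower (1 at an unadjusted p under 0.05), among them the IκB family members NFKBIB (0.70 ± 0.13), BCL3 (0.55 ± 0.12) and NFKBIZ (0.51 ± 0.12), where 18.2% of all start regions were higher and 6.88% lower. The effects of these 3 differed between the lines by -0.75 ± 0.15, -0.59 ± 0.15 and -0.67 ± 0.15, and all passed the test. Of 15 target genes, 13 had a start region in DU-145, with 3 called higher and 6 lower, beside 8.18% and 39.8% of all start regions. BCL2A1, a survival gene, rose there from 2.69 ± 0.314 to 9.31 ± 0.294 (1.77 ± 0.19), and NUAK2 (-0.87 ± 0.08), CFLAR (-0.59 ± 0.09) and KLF6 (-0.54 ± 0.08) fell. Of the 10 targets with a start region in BT-549, KLF6 rose by 0.73 ± 0.13 and SOD2 fell by 0.36. These were the only calls of this list there, beside 18.2% of all start regions called higher and 6.88% lower.

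Peaks were fewest in the BT-549 DOX libraries, with 30450 to 39837 in the whole genome against 63271 to 95487 in the other libraries. Of the 57 DU-145 regions in these windows, 85.4% ± 3.65 (SD, n = 3) overlapped a peak in vehicle and 94.2% ± 2.68 in DOX libraries. Of the 34 BT-549 regions, 98.0% ± 1.70 did so in vehicle and 69.6% ± 3.40 in DOX libraries. All 10 starts had a peak in each of the 12 libraries. The regions were kept because peaks were found in at least 3 replicates, so overlap with peaks was partly set by how they were made. The shares over all regions were not computed, so these shares are not a trait of the members.

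The scaling moved all regions together. With the library sum, the median change of all regions was 0.24 in DU-145, -0.10 in BT-549 and -0.33 between the lines, and with TMM factors it was 0.05, 0.00 and -0.06. The calls over all regions split into 29363 higher and 13805 lower in DU-145 with the library sum and 23745 and 20167 with TMM factors, into 5642 and 8329 or 7340 and 6845 in BT-549, into 8817 and 15715 or 11645 and 12133 between the lines, and into 8915 and 3696 or 6899 and 6283 for the difference of the effects. With TMM factors the members' starts gave 8 lower in DU-145 and 6 higher in BT-549. In bulk libraries, fewer cells with an open region and a less open region in each cell cannot be told apart.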

How the data were processed

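ATAC-seq libraries of DU-145 and BT-549 cells (3 per group, 12 in all) were grouped by the cell line and DOX labels. Per the paper's methods and the submitters' processing notes, the authors aligned reads with BWA to GRCh38, removed duplicates with Picard, called peaks in each library with MACS2 2.2.7.1 or MACS3, merged peaks over replicates, kept regions found in at least 3 replicates, and cut them into 100-bp bins. The deposited bin tables hold estimated counts, the mean fragment coverage of each bin, which are not whole and which the authors had not normalized. Sums over a region were rounded to integers for the count models. The deposited peak lists give a fold enrichment (a ratio) and a −log10 q-value per peak, used as deposited. No value column was left unused (0).

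Regions were runs of contiguous bins, assigned to GENCODE release 44 genes with 20 kb flanks. The members and the gene lists were chosen with earlier results of these data known. All 10 members were named with their start region and window, and in each locus and comparison up to 3 further regions past the threshold with the largest change. Others named were chosen after their values were seen.

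Sums with a total of at least 10 were tested with edgeR 4.0.16 (quasi-likelihood, robust) in R 4.3.3, with library sums as sizes, Benjamini-Hochberg adjustment over all features of a fit and a threshold of 0.05. Lines were compared over the 321392 bins present in both tables (709366 in DU-145 and 472994 in BT-549), in a fit of line on the vehicle libraries alone. The DOX effects of the lines were compared over the same bins, in 1 fit of all 12 libraries on line, DOX and their interaction. Motifs were searched on both strands of 300 bases around the highest bin, and some of the sequences are not reported here. Alternatives were TMM and RLE factors, loess offsets, the GC trend, DESeq2 1.42.0, limma 3.58.1, low-value filters, the replicate number as a block, leaving out each library, other summaries and windows, and the study's stricter call rule (fold 2, adjusted p 1e-05 in DU-145 and 0.01 in BT-549). On simulated data with known changes, the fits recovered 68% of 2-fold and 100% of 4-fold changes in DU-145. They recovered 61% and 93% in BT-549, 84% and 100% between lines, and 41% and 92% for the interaction. Of the calls, 5.08%, 6.67%, 2.13% and 8.9% were false, in that order. The simulated counts were independent draws at a fixed dispersion, with 100 changed regions per fold. The data are sums of bin coverage with many more called regions, so these rates need not hold for them. Library sums were between 2502510 and 25232000, so that low regions of the BT-549 DOX libraries are the least precise.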

Additional observations from a re-analysis of the deposited data

Results flagged for a closer look

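The DOX effect differed between the lines in 16 of the 32 shared regions, by the interaction test in edgeR. Such calls were common everywhere: of all 32671 shared regions, 8915 had a more positive and 3696 a more negative effect in DU-145. Values are the effect in DU-145 minus that in BT-549 on the log2 scale, and the test was of this difference itself.

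At the starts of the members, the difference was -0.85 for BIRC3, -0.59 for RELB, -0.48 for NFKBIA, -0.35 for NFKB2 and 0.46 for NFKBIE. Away from starts, it was 2.47 for NFKBIA +4.4 kb, 2.25 for TNFAIP3 +6.2 kb, 1.75 for BIRC3 -4.4 kb, 1.17 for NFKB1 +119.3 kb and 0.66 for RELA +10.1 kb. At starts of neighboring genes, it was 1.01, 1.99 and 0.98 for the PSD starts at NFKB2 +8.2, +9.9 and +13.4 kb, -0.77 for HSP90AB1 at NFKBIE +18.5 kb, 0.43 for SLC35B2 at NFKBIE +10.1 kb and 0.49 for the region at BIRC3 +29.6 kb. The BT-549 DOX libraries were the shallowest of the 12, with library sums of 2502510 to 3267024, and the part of depth in these differences was not tested.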

How the results depend on the processing

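Of 2140 values of single regions and loci of the members under an alternative setting, 1873 kept their direction and their side of the threshold, 175 lost their call, 68 gained one and 24 changed sign. Values that rest on few fragments, above all in the BT-549 DOX libraries, are limited by depth, and the cause of the changes below was not tested. For the counts of starts, other regions and loci below, the shares of all such features under each setting were not computed.

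For the DOX effect in DU-145, the count of member starts called lower was 1 with loess offsets, 0 with the mean coverage per bin and 0 under the study's stricter rule. The other regions in the windows, 20 higher and 6 lower, were 13 higher and 10 lower by DESeq2, 13 and 3 with the mean coverage per bin, and 6 and 0 under the stricter rule, and 11 were lower with RLE factors. NFKB2 and NFKBIA starts turned to 0.05 and 0.15 with loess offsets. NFKBIE +10.1 kb turned to -0.02 by DESeq2 and with RLE factors and to -0.06 for its highest bin. Among the loci of the members, 2 were lower with the GC trend removed, by limma and with 5 kb flanks, where 0 were higher. NFKB1 turned to -0.04 and TNFAIP3 to -0.15 with 5 kb flanks, and BIRC3 to -0.26 with the GC trend removed. Over the gene body alone, 0 were higher and 6 lower, and NFKB1 turned to -0.36, NFKBIA to -0.26 and TNFAIP3 to -0.55.

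In BT-549, member starts called higher were 3 with the GC trend removed or loess offsets, 0 with the mean coverage per bin and 0 under the stricter rule. Starts called lower were 0 with the mean, the highest bin and the stricter rule. Other regions called higher were 0 with the mean and the stricter rule, and 0 were lower with the mean. Of the loci of the members, 3 were higher with the GC trend removed. Over the gene body alone 4 were higher and 1 lower, and NFKBIA turned to 0.41 and NFKBIE to -0.62.

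Between the lines in vehicle, member starts called higher were 7 by DESeq2 and with RLE or TMM factors and 5 for the highest bin, and those called lower were 0 by DESeq2, 1 with RLE factors and 1 for the highest bin. Other regions of the members called lower were 5 by DESeq2, and those called higher were 7 with the GC trend removed, loess offsets or the highest bin and 2 with the mean. The NFKB2 start turned to 0.24 by DESeq2 and RLE, 0.21 with TMM factors and 0.39 for the highest bin. BIRC3 +29.6 kb turned to 0.07 by DESeq2 and RLE, 0.04 with TMM, 0.31 with the GC trend removed and 0.20 for the highest bin, and NFKBIE -4.2 kb to 0.12 with loess offsets. Loci of the members called lower were 5 with the GC trend removed, and those called higher were 3 with loess offsets or whole-table sums.

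For the difference of the DOX effect, member starts with a higher effect in DU-145 were 0 and those with a lower one 8 by DESeq2, with RLE or TMM factors and with whole-table sums, and 2 were lower with loess offsets. Other regions of the members were higher in 5 cases by DESeq2, with the GC trend removed or loess offsets and in 6 with RLE or TMM factors, and lower in 3 by DESeq2 and 2 with RLE factors. BIRC3 +29.6 kb turned to -0.19 with the GC trend removed.

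Leaving out each library gave 1 to 2 loci of the members called lower in DU-145 (2 without the second DOX library), 2 to 5 starts and 1 to 3 other regions called higher in BT-549 (2 and 1 without the first vehicle library), and 1 to 2 BT-549 loci called higher (2 without the first DOX library). Starts of the members with a higher effect in DU-145 were 0 to 1, and 0 without the second BT-549 vehicle, the second or the third BT-549 DOX, the second or the third DU-145 vehicle or the second DU-145 DOX library. No call of a single member value changed sign when a library was left out.

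The labels number the libraries, but nothing says that a number marks a shared batch. Deviations of same-numbered libraries correlated between -0.035 and 0.069, and not every library correlated best with its own number. With the replicate block, members called lower were 2 of the DU-145 loci and members called higher 3 of the BT-549 loci.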

Other observations

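The genes whose start regions followed those of 2 members most closely over the 12 libraries were ranked among 12603 genes by Pearson's r of log2(scaled coverage + 1), as a description over libraries that share their line and depth. For NFKBIA these were KLHL22 (r = 0.991) and CIB1 (r = 0.990), and for TNFAIP3 they were RAB22A (r = 0.981), TNKS (r = 0.980) and PYCR3 (r = 0.975). The mean scaled coverage (per 1000000 of the library sum) of KLHL22 was 130 and 115 in vehicle and DOX libraries of DU-145 and 45.5 and 57.5 in those of BT-549. That of RAB22A was 18.9 and 20.7 in DU-145 and 49.8 and 64.6 in BT-549.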
